A study of Apis mellifera with 24 samples.

Results

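In the brains of 24 honey bee workers, 100 genes were low where the transcript GB55205 was high. GB55205 is the most abundant of a run of 12 identifiers, GB55204 to GB55215, that the working label of the data names royal jelly transcripts. The deposited tables pair no identifier with a gene name, so this naming was not tested and the genes are given by identifier only. The 100 members were chosen by their measured levels, as the genes with the most negative Pearson correlation with GB55205 among 8261 other genes, out of 15314 identifiers in the expression table. Levels are given as CPM, counts scaled to the same total in each bee, with 16 identifiers left out of that total: the 12 of the run and GB53576, GB44549, GB45796 and GB43247. For the correlation, levels were taken as log2(CPM + 1), the mean of the bee's own lineage was subtracted, and genes needed a mean of at least 5 CPM. The correlation with GB55205 therefore describes how the genes were chosen and supports nothing else. The choice did not use the differences between lineages or the ratio of maternal to paternal reads within a bee. Reproductive status was no term of the choice, but it varies within lineages over the same bees, so values by status are not independent of it.

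Royal jelly is the protein-rich food that worker bees secrete for larvae and the queen, and its major proteins are made in bulk by the hypopharyngeal glands of nurse workers. These paired glands lie in the head beside the brain, and their output changes with the age and task of the worker. Transcripts of the same protein family have also been reported in brain tissue itself. In a polyA library all transcripts compete for the same reads, so a transcript that takes a large share lowers the count of every other gene, and leaving such transcripts out of the total is one way to set the rest on a common scale.

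Each library came from the brain of 1 worker, dissected from a lyophilized bee. European (Eur) and Africanized (Afr) honey bees had been crossed in both directions, and the worker offspring spent some 18 days in queenless colonies, a setting in which part of the workers activate their ovaries. Written with the mother first, lineages L875 (block A) and L882 (block B) were Eur x Afr, and lineages L888 (block A) and L894 (block B) were Afr x Eur. Each lineage gave 3 reproductive and 3 sterile workers. All 24 bees shared the colony setting, and no bee from a colony with a queen was analysed here. Each direction of the cross was represented by 1 lineage per block, so lineage and direction cannot be told apart. Bees of 1 lineage are the replicates, and p-values measure the spread between these bees. In the headers of the allele tables, the letters that mark status are exchanged for L888 relative to its sample labels. The labels were followed, and results on status are also given without L888 and with its status exchanged.

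Total expected counts ran from 5.19 to 16.7 M (mega counts) per bee, around a mean of 10.9 M ± 2.60 (SD, n = 24). The 16 left-out identifiers held between 3.51% of the counts in L882 Reproductive 1 and 71.4% in L894 Sterile 3. Between 3.84 and 9.79 M counts per bee remained for all other genes. The 100 members together held 0.767% of those remaining counts on average, with a range of 0.56% to 1.12%. Their smallest count in any bee was 3 and the median over members of the smallest count was 80.9. Markers of glia, neurons, gland, fat body and muscle could not be read, because 0 of the identifiers matched the reference table of gene names. In tissue of many cells, fewer cells of a type and less RNA per cell cannot be told apart.

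GB55205 itself ran from 2917 CPM in L882 Reproductive 1 to 1163478 CPM in L894 Sterile 3, a value above the total it is scaled to, because GB55205 is not part of that total. The other abundant identifiers of the run rose and fell with it. Across the 24 bees GB55204, GB55206, GB55208, GB55209, GB55211, GB55212 and GB55213 had correlations with GB55205 between 0.897 and 0.974. Each of these 7 was negatively correlated with all 100 members, which follows from the choice because they run so closely with GB55205. GB55207 and GB55214 followed GB55205 only weakly, with r of 0.24 and 0.20, and GB55210 had a count in 9 bees only. Of the 4 left-out identifiers outside the run, GB45796 and GB44549 followed GB55205 closely (r of 0.825 and 0.785), GB53576 less so (r of 0.623), and GB43247 hardly at all (r of 0.04).

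The members ran from r = -0.853 to r = -0.729, with a median of -0.758, and 12 of them lay under -0.8. Among all 8261 genes the median was -0.13, and 59.3% of the genes had a negative value, so a weak fall with GB55205 was common and the members form its extreme end. The last genes inside the limit were GB51502 (r of -0.730) and GB44894 (r of -0.729). The first genes outside it were GB45583 (r of -0.728) and GB52442 (r of -0.727). The limit therefore divides a continuous series of values and marks no gap.

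The falls were shallow for the size of the range that GB55205 covered. For each doubling of GB55205 the members changed by a median of -0.14 on the log2 scale, from -0.05 for the shallowest to -0.32 for the steepest. Over all genes the median was -0.02. The mean of the 100 members fell by 0.15 for each doubling of GB55205, and bees scattered around that line with an SD of 0.18 (log2).

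**Figure D1:**
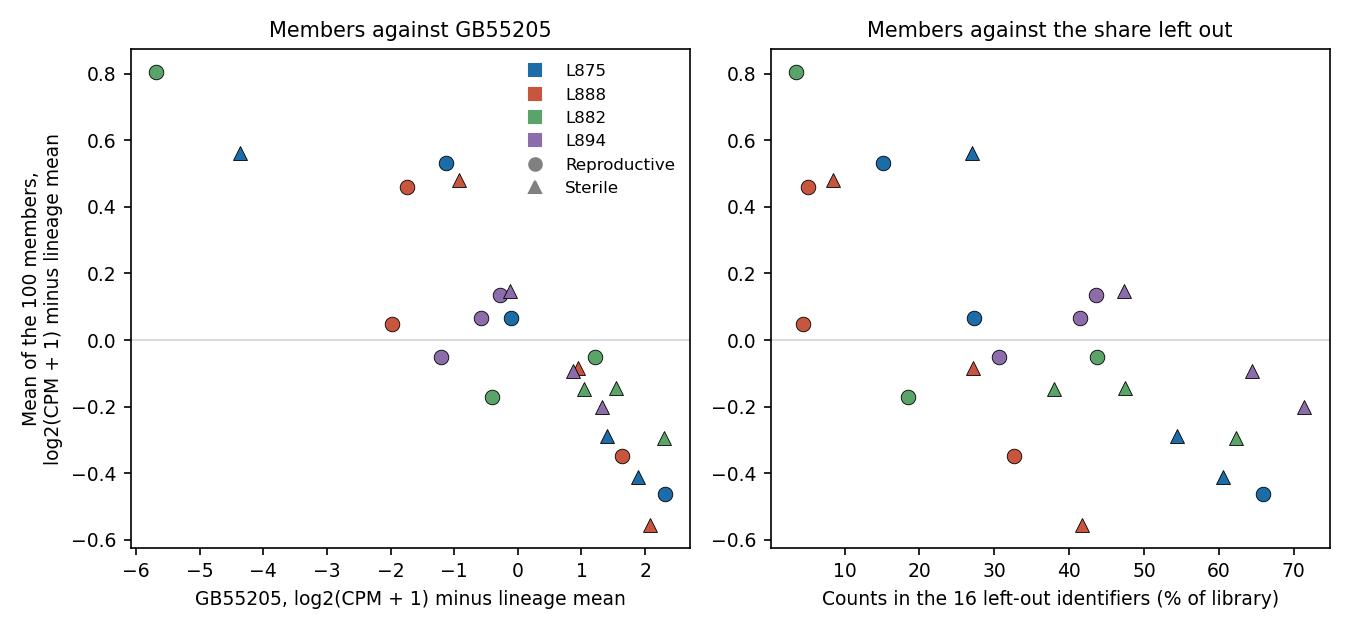
Mean level of the 100 members in each of the 24 bees, as log2(CPM + 1) minus the lineage mean, against GB55205 on the same scale (left) and against the percentage of the library held by the 16 left-out identifiers (right). Colours mark lineages, circles reproductive and triangles sterile bees. The bee L882 Reproductive 1, at 0.81 for the members and -5.68 for GB55205, stands farthest to the upper left.

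The 2 bees with the least GB55205 for their lineage were L882 Reproductive 1 and L875 Sterile 3. Every one of the 100 members was above its lineage mean in both of these bees. At the other end, 0 of the 100 members were above the lineage mean in L888 Sterile 2, the bee with the most GB55205 in L888. The relation was not exact in every bee. Relative to the lineage mean (log2), L875 Reproductive 2 was at -1.12 for GB55205 and 0.53 for the mean of the members, and L888 Sterile 1 at -0.93 and 0.48. Their members were about as high as those of L875 Sterile 3, which was at -4.36 and 0.56. L888 Reproductive 1 had the lowest GB55205 of its lineage, at -1.98, with members at 0.05. In L882 Reproductive 3 both were below the lineage mean, at -0.41 and -0.17.

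GB54261 had the most negative correlation of all genes. In L875 its reproductive bees had 54.6, 120.0 and 108 CPM and its sterile bees 56.4, 62.7 and 171 CPM. In L888 the reproductive bees had 104, 70.5 and 131 CPM and the sterile bees 129, 77.0 and 118 CPM. The statuses overlapped in both lineages of block A, and the highest value of all, 171 CPM, was that of L875 Sterile 3. In L882 the reproductive bees had 141, 82.0 and 72.5 CPM and the sterile bees 86.3, 64.5 and 72.1 CPM. In L894 the reproductive bees had 70.0, 66 and 73.8 CPM and the sterile bees 60.4, 75.7 and 50.6 CPM. The statuses overlapped in block B too, and the value of 141 CPM in L882 Reproductive 1 stood far above the other 5 bees of its lineage. GB54261 was the one of the leading pair that also fell with GB55205 inside L894, with an r of -0.724 over those 6 bees.

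GB45699 came next. In L875 it had 28.9, 56.7 and 44.7 CPM in reproductive bees and 28.8, 31 and 75.1 CPM in sterile bees. In L888 it had 76.8, 42.5 and 58.5 CPM in reproductive bees and 59.0, 39.9 and 46.5 CPM in sterile bees. The highest bees of L875 were again those with the least GB55205. In L882 it had 68.1, 39.2 and 31 CPM in reproductive bees and 30.1, 38.9 and 42.1 CPM in sterile bees. In L894 it had 39.5, 39.4 and 42.6 CPM in reproductive bees and 41.6, 49.2 and 42.9 CPM in sterile bees. Within L894 it did not fall with GB55205, with an r of 0.279 over the 6 bees.

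**Figure D2:**
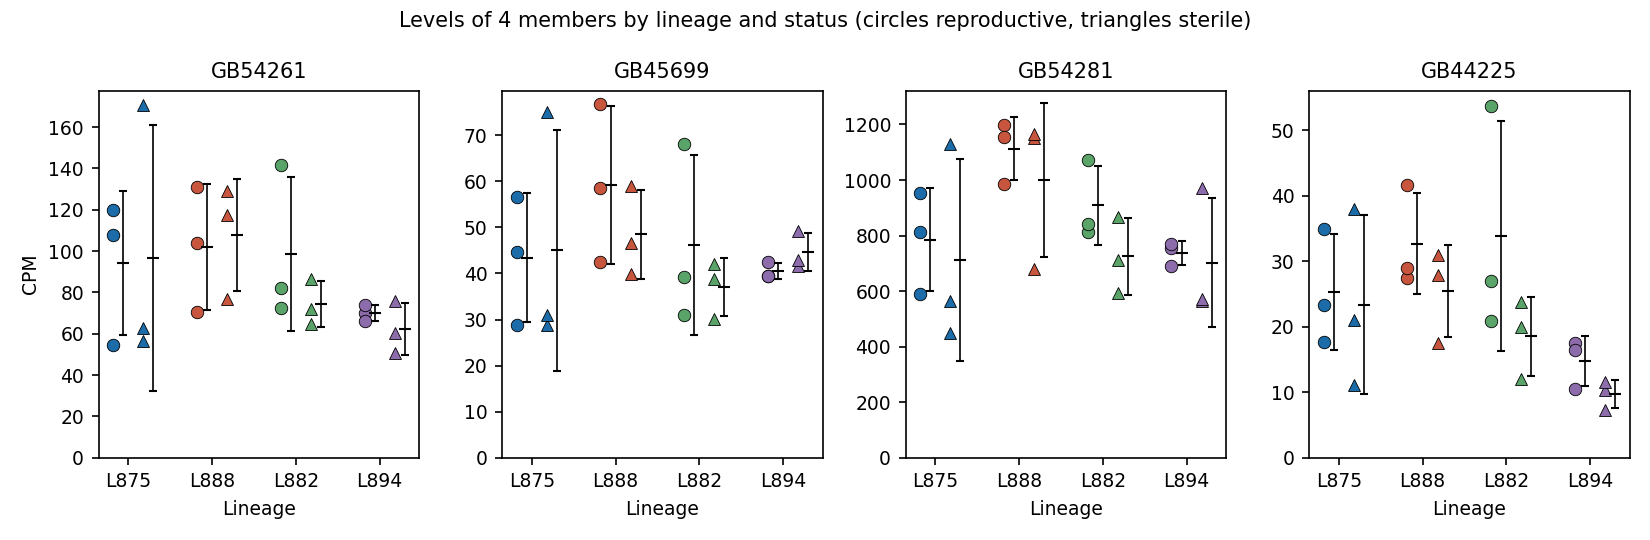
CPM of 4 members in each bee, by lineage and status, with the mean and SD of the 3 bees beside them (circles reproductive, triangles sterile). GB54261 and GB45699 had the most negative correlations, GB54281 the highest level and GB44225 the smallest p for status. Reproductive and sterile bees overlapped in every lineage for all 4 genes.

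The 2 most abundant members were GB54281 and GB55294. GB54281 had a mean of 836 CPM. Its lineage means were 1056 ± 200 CPM in L888, 817 ± 161 in L882, 749 ± 261 in L875 and 721 ± 150 in L894 (SD, n = 6 each). GB55294 had a mean of 607 CPM, with 670 ± 121 CPM in L888, 601 ± 167 in L875, 594 ± 71.9 in L894 and 565 ± 70.4 in L882 (SD, n = 6 each). Both were highest in L888, the lineage with the least GB55205, and for both the neighbouring lineages in that order differed by less than the SD between bees, except for GB54281 in L888 against L882. The highest bee of both genes was L888 Reproductive 1.

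The members were ordinary genes by their level. Their mean ran from 5.68 to 836 CPM with a median of 38.0 CPM, and the median of all 8261 genes was 41.0 CPM. Of the 100, 54 were below that median, 17 had 100 CPM or more and 9 had less than 10. Their spread within lineages was a little larger than usual, with a median SD of 0.41 on the log2 scale where all genes had 0.35. The highest bee exceeded the lowest by a factor of 1.49 to 31.5, with a median factor of 3.41. It exceeded it by a factor of 10 or more in 9 members and of less than 2 in 7.

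The members moved together, as genes chosen for 1 shared correlation must to some degree. The correlation between 2 members, over 4950 pairs and after subtraction of lineage means, had a median of 0.752 and ranged from 0.346 to 0.957, so that every pair was positive. Over all pairs of genes the median was 0.050. The first principal component of the members held 75.9% of their variance and the second 4.69%. Counts of members are therefore counts over genes that share most of their variation and do not stand for as many separate measurements.

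**Figure D3:**
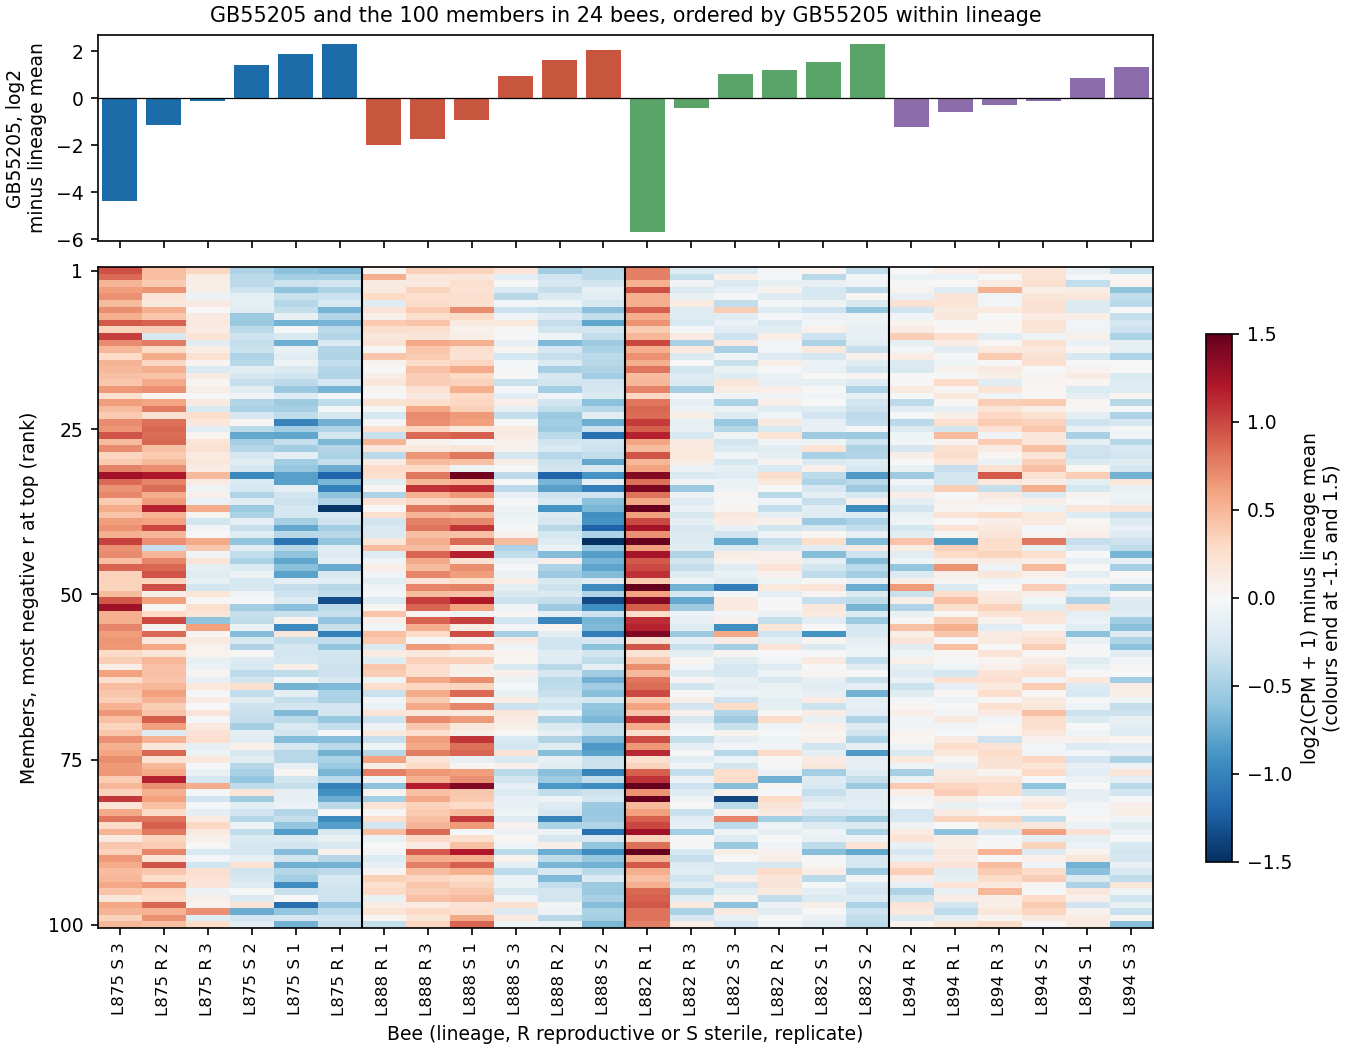
Levels of the 100 members (rows, most negative correlation at the top) in the 24 bees, as log2(CPM + 1) minus the lineage mean, with GB55205 on the same scale in the bars above. Bees are ordered by GB55205 within lineage. Most members are above the lineage mean to the left of each lineage and below it to the right, with weaker contrast in L894.

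A few bees set the extremes. The highest level was in L882 Reproductive 1 for 36 members and in L875 Sterile 3 for 11. It was in a bee of L888 for 51, among them 25 in L888 Sterile 1 and 18 in L888 Reproductive 3. The lowest level was in L875 Reproductive 1 for 29 members, in L875 Sterile 1 for 28 and in L894 Sterile 3 for 16. These 3 bees were the highest of their lineages in GB55205 or next to it.

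Inside 3 of the 4 lineages the relation stood in every member, though each lineage has only 6 bees and was part of the choice. The median correlation of the members was -0.852 in L875, -0.802 in L888 and -0.869 in L882, and 100 of 100 members were negative in each. In L894 the median was -0.348, 77 of 100 were negative, and single members reached 0.886. GB55205 covered a narrower range in L894 than elsewhere: 2.53 on the log2 scale between its lowest and highest bee, where L888 had 4.05, L875 had 6.67 and L882 had 7.97. GB51502, just inside the limit, was among those that went the other way in L894, with an r of 0.705 there and -0.916 in L882. The 12 reproductive bees gave a median of -0.791 and the 12 sterile bees one of -0.817, with 100 of 100 members negative in both. The medians of all genes were -0.191 and -0.125. These bees too were part of the choice, so the sign is no separate result.

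**Figure D4:**
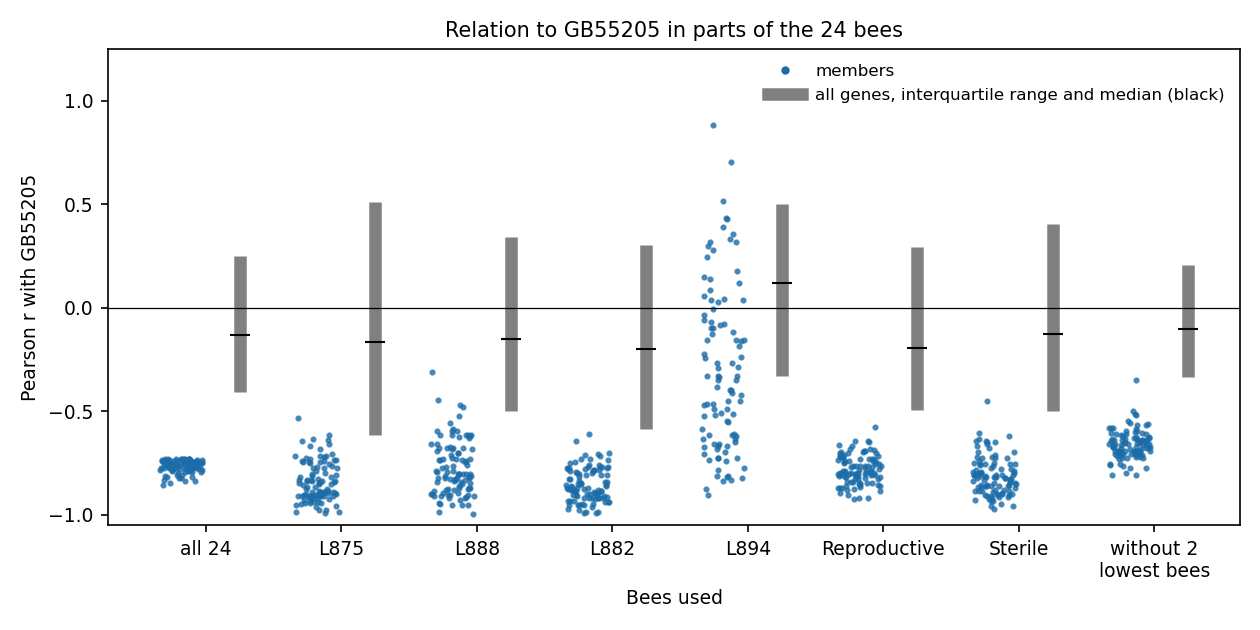
Pearson r with GB55205 for each of the 100 members (points) in all 24 bees, in each lineage, in each status and without the 2 bees lowest in GB55205, beside the interquartile range and median of all genes (grey bars, black lines). The members stay below 0 in every subset except L894, where 77 of 100 do. The bees of every subset were part of the choice of members.

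Without L882 Reproductive 1 and L875 Sterile 3 the median was -0.663 and 100 of 100 members were negative, beside a median of -0.102 for all genes. Leaving these bees out was decided after the values were seen. The bees kept were part of the choice of members, so the sign follows largely from it. The ranking of genes moved: 45 of the 100 remained among the 100 most negative. With totals over all genes in place of the reduced totals, 34 of the 100 remained among the 100 most negative.

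Depth and composition varied with the same bees. The mean of the members had an r of -0.882 with GB55205 (Spearman rho -0.872) and of -0.682 with the log2 total of the library (rho -0.650), so that bees with larger libraries had lower members. With the 2 libraries farthest from the median left out, the second value was -0.539. With the log2 total of counts outside the 16 identifiers the value was 0.423 (rho 0.515), which became 0.340 without the 2 farthest bees. These values are descriptions over the same 24 bees that chose the members, and the part of depth in the relation was not tested. With the 16 identifiers aside, the mean of the 100 genes most positively correlated with GB55205 had an r of -0.887 with the members' mean. The first principal component of all genes outside both lists and the 16 identifiers held 23.9% of their variance. Its r with the members' mean was 0.938.

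The lineages differed in the members' level, a difference that the choice of members did not use because lineage means had been subtracted. L888 had the lowest GB55205 and the highest members: on the log2 scale its mean was 16.2 for GB55205 and 5.51 for the members. L882 followed with 17.2 and 5.25, then L875 with 17.5 and 5.05, and L894 came last with the most GB55205, 18.8, and the lowest members, 5.03. The order of the 4 lineages by GB55205 was thus the reverse of their order by the members. The neighbours in this order were not apart: the members' mean varied between bees of a lineage with an SD of 0.42 in L888, 0.40 in L882, 0.46 in L875 and 0.14 in L894.

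By single members, 85 of 100 had their highest lineage mean in L888 and 0 had their lowest there. Of the 8147 genes that were neither members nor left out of the totals, 33.1% had their highest mean in L888 and 22.7% their lowest. L875 was the lowest lineage for 46 members and L894 for 48, beside 34.2% and 30.3% of the other genes. Between L888 and L894, the lineages with the least and the most GB55205, 96 of 100 members were higher in L888, with a median log2 difference of 0.45. Of the other genes 57.1% were higher in L888, with a median of 0.07. Between L875 and L894, which differed by 1.36 in GB55205, 51 of 100 members were higher in L875 and the median difference was 0.01, beside 41.8% and a median of -0.06 for the other genes. Between L882 and L875, which were closest in GB55205, 79 of 100 members were higher in L882, near the 71.9% of the other genes.

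Within block A, the comparison of Afr x Eur (L888) with Eur x Afr (L875) called 0 members at an adjusted p of 0.05, and 0.15% of the 9316 genes tested in edgeR's quasi-likelihood fit (0.0751% with the higher level in L888). At an unadjusted p under 0.05 stood 26 of the 100 members and 1228 of all genes. DESeq2 called 1 member and limma voom 0, given without their shares of all genes. By sign, 90 of 100 members were higher in L888 (49.5% of all genes), with a median log2 difference of 0.31, where the median of all genes was close to 0. GB55205 was lower in L888 by 1.75 on the log2 scale (SE 1.01), with an adjusted p of 0.447 in edgeR. With the level of GB55205 as a covariate, chosen after the values were seen, 76 of 100 members were higher in L888 and the median was 0.17. Members were chosen to fall as GB55205 rises, so the sense of this change follows from the choice.

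GB43248, the member with the smallest p in block A, went against most of the others. It had 617, 709 and 967 CPM in reproductive and 714, 676 and 1709 CPM in sterile bees of L875. In L888 it had 579, 493 and 586 CPM in reproductive and 555, 404 and 504 CPM in sterile bees. All 6 bees of L888 were below all 6 of L875. The log2 difference was -0.89 (SE 0.20) with an adjusted p of 0.0905 in edgeR, and the adjusted p was 0.00724 in DESeq2. Without L875 Sterile 2 edgeR gave -1.04 with an adjusted p of 0.0370, and without L875 Sterile 3, the bee at 1709 CPM, the difference was -0.61.

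Within block B, the comparison of Afr x Eur (L894) with Eur x Afr (L882) also called 0 members, and 0.118% of the 9316 genes (0.0644% with the higher level in L894). At an unadjusted p under 0.05 in edgeR stood 8 members, and DESeq2 and limma voom called 0. The count of 8 is given without that of all genes and is no result on the members. Here 32 of 100 members were higher in L894, beside 47.7% of all genes, and the median log2 difference was -0.09 (all genes, -0.02). On the log2(CPM + 1) scale, without the factors of the fit, 80 of 100 members were higher in L882, beside 63.8% of the other genes. GB55205 was higher in L894 by 0.93 (SE 0.99), with an adjusted p of 0.695 in edgeR. The sign of the members rested on L882 Reproductive 1, without which 56 of 100 were higher in L894. With GB55205 as a covariate 73 of 100 were higher in L894, and in sterile bees alone 55. As in block A, the sense of the change with the covariate follows from the choice of members.

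GB53613 had the smallest p in block B. Its levels in L882 were 39.0, 9.16 and 4.58 CPM in reproductive and 9.40, 4.42 and 3.45 CPM in sterile bees. In L894 they were 2.35, 5.11 and 2.91 CPM in reproductive and 2.35, 4.08 and 1.70 CPM in sterile bees. The lineages overlapped, and 1 bee, L882 Reproductive 1, stood far above the rest. The log2 difference was -1.54 (SE 0.45) with an adjusted p of 0.205 in edgeR, and -0.92 without that bee.

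The 2 direction contrasts were compared directly in a test added after the values were seen. Block B minus block A called 0 members in edgeR and 0.118% of the 9316 genes (0.0644% with the more positive value in block B), with 26 members at an unadjusted p under 0.05. DESeq2 called 5 members and limma voom 0. The counts by unadjusted p and by DESeq2 are given without those of all genes and are no result on the members. For 10 of 100 members, and 49.9% of all genes, the direction difference was more positive in block B, and the median was -0.42, where that of all genes was close to 0. GB55205 differed between the blocks by 2.68 in the opposite sense (SE 1.42), with an adjusted p of 0.276 in edgeR. With GB55205 as a covariate the split was 47 of 100 and the median -0.04. The sense of this change too follows from the choice of members. GB43248 again went the other way, at 1.40 (SE 0.28) with an adjusted p of 0.0541 in edgeR and 0.00155 in DESeq2.

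The study compared reproductive with sterile workers. Of the members 0 were called for status, against a background of 0% of the 9316 genes tested by edgeR. At an unadjusted p under 0.05 stood 2 members and 216 of all genes. DESeq2 and limma voom also called 0 members. By sign, 99 of 100 members were higher in reproductive bees, with a median log2 difference of 0.14, where 51.6% of all genes were higher and the median was 0.01. GB55205 was lower in reproductive bees by 1.02 on the log2 scale (SE 0.68), with an adjusted p of 0.99978 in edgeR. Because members were chosen to run against GB55205 within lineages, this sign is not independent of the choice and is no result on status. With the level of GB55205 as a covariate, 32 of 100 members were higher in reproductive bees and the median was -0.04. The sense of this change follows from the choice as well.

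By lineage, and again as a description, the members' sign did not always go against that of GB55205. The log2 difference of GB55205, reproductive minus sterile, was -3.25 in L882, where 99 of 100 members were higher in reproductive bees. It was -1.39 in L888, with 73 members higher, and -1.38 in L894, with 71 higher. In L875 it was 0.71, and 72 members were higher there too. Block B alone gave 99 of 100 higher with a median of 0.21, and block A alone 59 of 100 with a median of 0.05. Without L888 the count was 93, and with the status of L888 exchanged it was 80.

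GB44225 had the smallest p for status among the members. In block A its levels were 17.7, 23.4 and 35.0 CPM in reproductive and 11.1, 21.1 and 38.0 CPM in sterile bees of L875, and 27.4, 29 and 41.6 against 30.9, 17.5 and 27.9 CPM in L888. In block B they were 53.8, 27 and 20.8 CPM in reproductive and 23.8, 19.9 and 12 CPM in sterile bees of L882, and 17.5, 16.4 and 10.5 against 10.4, 11.5 and 7.30 CPM in L894. The statuses overlapped in all 4 lineages. Over the 12 bees of each status the means were 26.7 ± 12.1 and 19.3 ± 9.49 CPM (SD). The log2 difference was 0.46 (SE 0.19), and the adjusted p of 0.99978 in edgeR did not pass.

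A further fit asked whether the fall with GB55205 differed in size between reproductive and sterile bees. The members were chosen over the same bees by the pooled relation, which favours genes with like falls in both, so a lack of calls among them is not independent of the choice. The fit called 0 members, against 0% of the 9316 genes in edgeR, with 3 members and 808 of all genes at an unadjusted p under 0.05. DESeq2 called 33 genes and limma voom 2, of which 0 were members. The smallest p was that of GB49458, whose change per doubling of GB55205 was more negative in reproductive bees by 0.12 on the log2 scale (SE 0.05, adjusted p of 0.517 in edgeR). With the status of L888 exchanged, an alternative added after the values were seen, the difference was -0.03. Its level was highest in L882 Reproductive 1, at 47.0 CPM, and the other 5 bees of L882 lay between 23.6 and 28.3 CPM.

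The tables of allele reads cover few of the members. Of the 100, 14 were in both tables, and of all 8261 genes 31.4% were in the table of reproductive bees and 31.8% in that of sterile bees. Their allele reads ranged from 2 to 3240 per bee. The reads summed over bees came to between 0.0550 and 4.75 times the expected count of the same gene, with a median of 0.447 in reproductive and 0.433 in sterile bees. A ratio above 1, as 5 of the 14 had, means that allele reads and expected counts were not counted in the same way. Among all genes 48.5% and 48.8% were above 1. For GB46378, 41 of its 43 allele counts above 0 were whole multiples of 3. Whether reads were counted more than once was not tested. Tests on allele reads take the spread between bees from the bees, but counting error derived from the read numbers could be too small.

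In reproductive bees, 4 of the 14 members were called with the paternal copy higher and 0 with the maternal one higher. Over all 3475 genes tested by edgeR 10% were called, and 9.67% were called with the paternal copy higher, so the paternal copy was the higher one for most called genes of any kind. All 14 members had a positive paternal to maternal log2 ratio over the lineages together, with a median of 0.40. Among all genes the median was 0.16 and 83.5% were positive. The sign was not uniform by lineage. The mean paternal share was over 50% in all 4 lineages for 4 members and under 50% in at least 1 lineage for 10. These counts by lineage are given without those of all genes. The number called was 5 with limma on log2 ratios, 1 in limma with lineage fitted as a random effect, 1 in block A alone, 3 in block B alone and 2 without L888. The 10% belongs to the main fit. Shares of all genes under the alternatives are not given, so the counts under them are no result on the members. With the status of L888 exchanged, an alternative added after the values were seen, 2 members were called in reproductive and 2 in sterile bees.

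GB46378 had the largest ratio and the smallest p in reproductive bees. Its paternal share was 98.2% ± 3.12 in L875, 93.7% ± 4.05 in L888 and 99.4% ± 1.07 in L882 (SD, n = 3 each). In L894 it was 51.0% ± 0.41 (SD, n = 3). The high share was present in both Eur x Afr lineages. Of the Afr x Eur lineages it was lacking in L894, and in L888 it depends on the status labels, which the headers of these tables exchange. The log2 ratio was 4.11 (SE 0.67) with an adjusted p of 0.00533 in edgeR, over 12 to 315 reads per bee. In sterile bees the shares were 76.7% ± 31 in L875, 75.4% ± 9.93 in L882, 62.8% ± 26.7 in L888 and 50.1% ± 0.81 in L894 (SD, n = 3 each). They varied more between bees, and the log2 ratio of 1.19 (SE 0.49) had an adjusted p of 0.142 in edgeR. By the header letters, the 62.8% of L888 would be the share of its reproductive bees and the 93.7% that of its sterile bees. With that exchange the log2 ratio in reproductive bees was 3.46 with an adjusted p of 0.00398 in edgeR.

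GB55365 followed. In reproductive bees the paternal copy held 36.8% ± 2.91 of the reads in L875, 93.4% ± 8.88 in L882, 92.6% ± 10.1 in L888 and 94.3% ± 1.35 in L894 (SD, n = 3 each). In sterile bees it was 31.9% ± 8.85 in L875, 97.9% ± 3.61 in L882, 82.3% ± 14.5 in L888 and 95.3% ± 3.85 in L894 (SD, n = 3 each). The lineages kept the same pattern in both statuses: 3 with a high paternal share and L875 with more maternal reads. The log2 ratio was 2.71 (SE 0.66) with an adjusted p of 0.0276 in reproductive bees and 2.40 (SE 0.76) with an adjusted p of 0.0698 in sterile bees, both in edgeR. With the status of L888 exchanged the adjusted p in edgeR was 0.0535 in reproductive and 0.0403 in sterile bees. The other 2 members called in reproductive bees were GB54281, with a log2 ratio of 1.28 (SE 0.34) and an adjusted p of 0.0390, and GB54813, with 1.10 (SE 0.31) and 0.0464, both in edgeR.

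**Figure D5:**
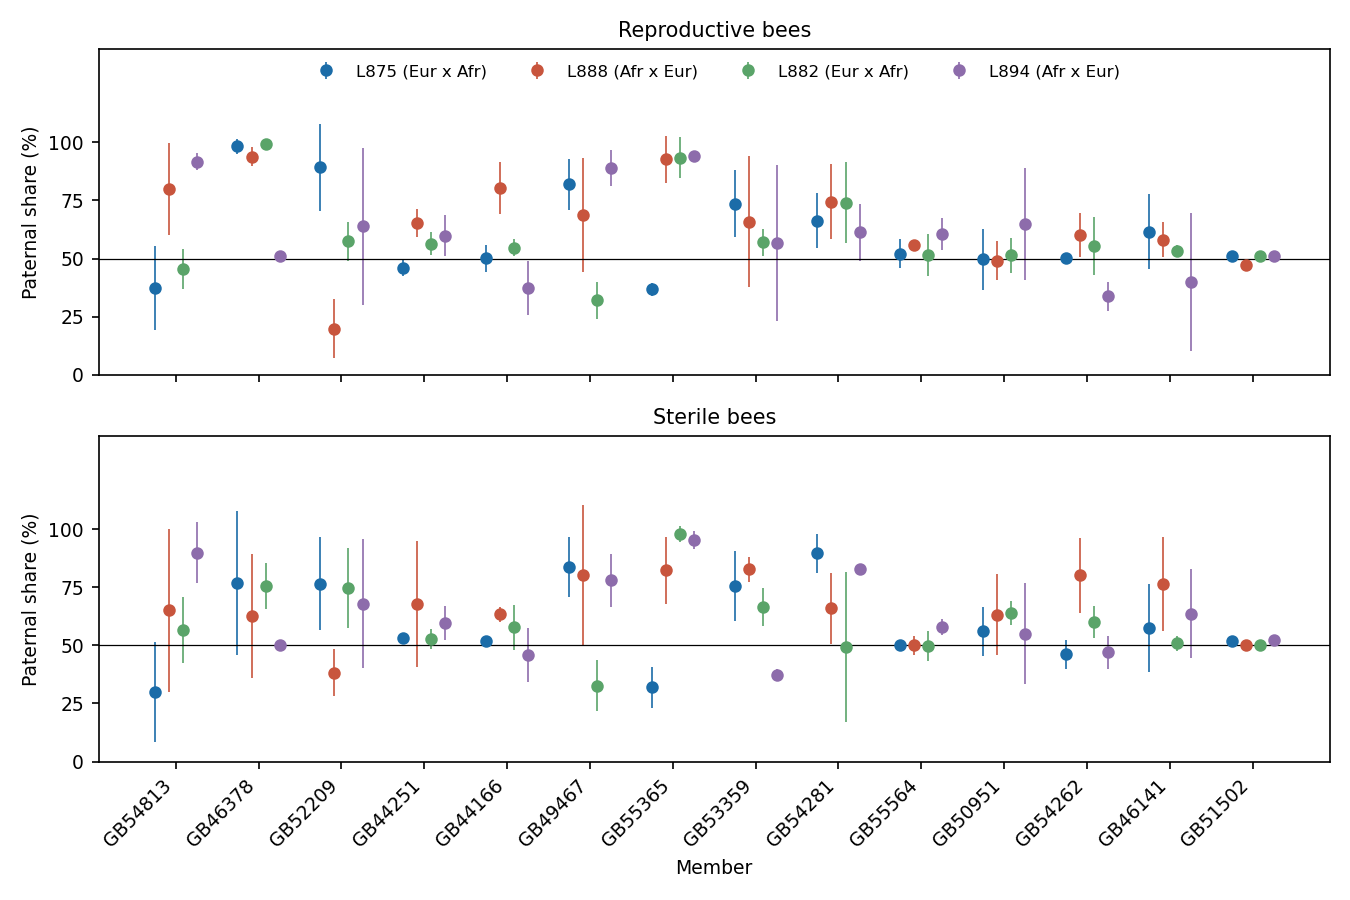
Paternal share of allele reads (%) for the 14 members with allele reads, in reproductive (top) and sterile bees (bottom). Points are the mean of 3 bees of a lineage and lines the SD, the horizontal line marks 50%, and SD lines can pass 100%. GB46378 in reproductive bees is near 100% in 3 lineages and near 50% in L894, and GB51502 is near 50% in every lineage.

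In sterile bees 0 of the 13 members tested were called by edgeR, 8 had an unadjusted p under 0.05, and limma on log2 ratios called 1. Among all 3480 genes 9.37% were called by edgeR, 9.08% with the paternal copy higher. The counts by unadjusted p and by limma are given without those of all genes and are no result on the members. All 13 ratios over the lineages together were positive, with a median of 0.82 (all genes, 0.17). By lineage, 9 of the 14 members with allele reads had a mean paternal share under 50% in at least 1 lineage. The other 5 were over 50% in all 4 lineages. At the other extreme GB51502, with 632 to 1836 reads per bee, had lineage shares between 47.1% and 52.3% in both statuses.

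The ratio of the 2 copies was also compared between statuses and against GB55205. Between statuses 0 of 13 members were called by edgeR, against 0% of 3414 genes, with 1 member and 100 of all genes at an unadjusted p under 0.05, and limma called 0. That member was GB46378, whose log2 ratio was 2.93 higher in reproductive bees (SE 0.85, adjusted p of 0.844 in edgeR). The difference had an adjusted p of 0.0298 in block B alone. With the status of L888 exchanged it was 1.59 with an adjusted p of 1, and 0 members had an unadjusted p under 0.05. Against GB55205 also 0 of 13 were called, against 0% of 3414 genes, with 1 member and 89 of all genes at an unadjusted p under 0.05 in edgeR and 0 called by limma. That member was GB54281, whose paternal to maternal log2 ratio fell by 0.32 for each doubling of GB55205 (SE 0.14, adjusted p of 1 in edgeR).

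The reads of each copy come from the libraries that chose the members, so their course with GB55205 is given as a description. Scaled to the same totals, the paternal reads were negatively correlated with GB55205 in 11 of the 14 members and the maternal reads in 9, with both negative in 7. Among the 2589 genes of the 8261 with reads in both tables, 46.5% of the paternal and 48.2% of the maternal copies were negative, and 38.4% had both negative. The median r of the members was -0.309 for paternal and -0.164 for maternal reads, where that of all these genes was 0.04 and 0.02. GB44166 fell on both copies, with an r of -0.646 and -0.695 in that order. GB54281 fell on the paternal copy with an r of -0.737 and had 0.08 on the maternal one. These 2 genes were chosen after their values were seen, and the values are descriptions over 24 bees.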

How the data were processed

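The table of gene levels deposited by the authors lists expected counts, of which 87.3% are whole and which are not scaled, for 15314 identifiers in 24 bees. Per the file headers, the allele tables deposited by the authors hold counts of reads assigned to the drone (paternal) or queen (maternal) copy of a gene. Libraries were paired-end over 2 lanes, per the labels. HISAT2 and limma are named in the submitters' processing notes, without version or role. The counting tool, genome build and way of allele assignment were not given in the sources used here. Columns without a sample: 0.

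The members and lists were chosen with earlier results of these data known. CPM used totals without 16 identifiers, and log2 values a pseudocount of 1. For tests, expected counts were rounded, filtered with filterByExpr (9316 genes) and tested in quasi-likelihood fits with TMM factors in edgeR 4.0.16 (R 4.3.3), two-sided, with Benjamini-Hochberg adjustment over all genes and a threshold of 0.05. The status fit had lineage and status as terms, the direction fits 1 mean per group. Allele reads were fitted with bee, parent and African against European allele as terms, for genes with at least 20 allele reads in every lineage. The pooled correlations with GB55205 were not tested, because they chose the members.

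Alternatives were RLE factors, totals without the 16 identifiers, other count filters, DESeq2 1.42.0, limma 3.58.1, other minimums of allele reads, each block alone, L888 left out or exchanged, GB55205 as a covariate, and each bee left out. Named genes are GB55205, the members with the most negative correlation, those beside the limit, the most abundant and, per comparison, called members with the largest difference or smallest p, or the member with the smallest p where none was called. The lists of markers and pathways needed gene names and could not be applied, since 0 identifiers matched the reference table (assembly Amel_HAv3.1). Simulated data with known differences were used to test the fits.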

Additional observations from a re-analysis of the deposited data

Results flagged for a closer look

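Samples far from the others were searched in lineages of 6 bees, since groups of 3 are too small, for 14 genes or means in 4 lineages. By Dixon's ratio (the gap of the extreme bee to the next, divided by the range), 7 of 56 were beyond the critical value, where chance gives about 1 in 20. Of these, 5 concerned the bee L882 Reproductive 1, and the genes vary together, so they are not separate findings. This bee was the lowest of L882 in GB55205, with a ratio of 0.661. It was the highest of L882 in the mean of the 100 members (0.778), in GB54261 (0.630), in GB51502 (0.689) and in GB49458 (0.734). It also had the smallest library, 5.19 M (mega) counts, and the smallest percentage of counts in the 16 left-out identifiers, 3.51%. In L894, L894 Sterile 3 was the lowest bee in GB44894 (0.680) and had the most GB55205 of all bees. In L888, L888 Sterile 2 was the lowest bee in GB54281 (0.653) and had the most GB55205 of its lineage. The part of library size or composition in these values was not tested.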

How the results depend on the processing

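Of the 100 members, 34 remained with totals over all genes, 61 without subtraction of lineage means, 60 with group means subtracted, 61 by Spearman correlation, 40 after adjustment for the log2 library total, 46 without L888, 45 without the 2 bees lowest in GB55205 and 47 to 94 with 1 bee left out (47 without L882 Reproductive 1, 62 without L888 Reproductive 1, 65 without L875 Sterile 3). The other alternatives for membership kept 67 to 98.

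For block A, 1 member was called by DESeq2, without the 2 lowest bees and with GB55205 as a covariate, and 0 to 1 with 1 bee left out. For block B minus block A, 5 were called by DESeq2, 1 without the 2 lowest bees, 1 with the covariate and 0 to 6 with 1 bee left out (6 without L888 Sterile 2). For the paternal copy in reproductive bees, 1 was called with lineage as a random effect, 1 in block A, 2 without L888, 2 with its status exchanged, 2 without the 2 lowest bees and 1 to 4 with 1 bee left out. In sterile bees, 1 was called by limma on log2 ratios, in block A, in block B and without L888, 2 with the status of L888 exchanged, and 0 to 1 with 1 bee left out. The difference between statuses gave 1 in block B. Of the members higher in reproductive bees, 99 became 59 in block A and 32 with the covariate, and 82 to 100 with 1 bee left out. Of those higher in L894 than L882, 32 became 55 in sterile bees, 56 without the 2 lowest bees, 73 with the covariate and 22 to 56 with 1 bee left out. Those higher in L888 than L875 ran from 80 to 97 with 1 bee left out. Shares of all genes called under these alternatives are not given, so the counts only describe how the calls moved. The causes were not tested.

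No paired analysis was possible because the labels give no replicate numbers. The labels give a block, A or B, and name no extraction or sequencing batch. Each direction rests on 1 lineage per block, and whether allele reads were counted more than once was not tested.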

Other observations

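Of the 100 genes with the most positive correlation with GB55205, 10 were among the 16 identifiers left out of the totals, from within and outside the run. The levels of the left-out identifiers fell into steps of size: GB55205 had a mean of 349057 CPM, GB53576 of 104593, GB55204 of 91585 and GB55212 of 85542, while GB55214 and GB55215 had 22.4 and 17.4 and GB55210 had 0.13. GB55215 had an r of 0.820 with GB55205 in spite of its low level, and GB55214, at a like level, had 0.201. Those 2 were also apart in their relation to the members, with a negative correlation for 100 and 90 of them. For GB55215 this follows from the choice of members, given its r with GB55205.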
